A study of Rattus norvegicus with 10 samples.

Results

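Cytosolic ribosomal proteins were represented by 44 of the 15859 non-control probe sets, taken as every probe set whose platform annotation held exactly 1 gene symbol naming a large (Rpl) or small (Rps) subunit protein. The 44 probe sets belonged to 39 genes, with 29 probe sets of 27 large subunit genes and 15 probe sets of 12 small subunit genes. Rps27l and the Rps6k kinases do not follow this naming pattern and were left out. Liver RNA came from 10 rats of the strain CRL:WI (Han), 6 to 8 weeks old, with 1 Affymetrix array per animal. Of these, 5 received RG3487 at 180 mg/kg by gavage, and the other 5 received the vehicle, deionized water, in the same volume of 5 ml/kg. Sample labels place the livers at 24 h after dosing, while the series text names 2 h. Animals were housed in groups of 5, and the labels do not say how cages and treatments were combined.

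A eukaryotic ribosome is built from a small subunit, which reads the mRNA, and a large subunit, which joins amino acids. Each ribosomal protein is present in about equal amounts in the finished particle, and its mRNA is among the most abundant of any cell. Most of these mRNAs start with a short tract of C and T called the terminal oligopyrimidine tract, through which the kinase mTOR and the protein Larp1 control their translation. In liver, ribosome production follows feeding and growth. RG3487 was developed as a ligand of the neuronal nicotinic receptor formed by Chrna7 subunits.

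Array means were close to one another (329.97 to 331.76). The median signal was 94.8 ± 1.6 in RG3487 livers and 89.0 ± 3.2 in vehicle livers (SD, n = 5 each, exact permutation test, adjusted p = 0.037 over 7 array measures). The maximum signal was 9771 ± 433 with RG3487 and 10784 ± 399 with vehicle, without overlap (exact permutation, adjusted p = 0.0278). Control transcripts from bacteria and phage, added for the hybridization, averaged 9.71 ± 0.03 on the log2 scale with RG3487 and 9.90 ± 0.03 with vehicle (adjusted p = 0.0278, exact permutation). Ratios of 3′ to 5′ signal, a measure of RNA integrity, were 3.10 ± 0.30 and 3.42 ± 0.26 for actin, and 1.15 ± 0.03 and 1.20 ± 0.04 for Gapdh, in RG3487 and vehicle livers (exact permutation, adjusted p = 0.167 and 0.0972). The liver label was checked against 8 hepatocyte markers, all measured, of which Alb had a signal of 6895 ± 728 with RG3487 and 6959 ± 433 with vehicle. Summed hepatocyte marker signal ranged from 33502 to 39861 in RG3487 livers and from 40321 to 42111 in vehicle livers, with Hnf4a higher and Cps1, Tat and Apoa1 lower (6 lower when arrays were centred on their median, 1 with scaling to the hybridization controls). Among markers of other cells, 1 of 4 Kupffer cell markers (Cd163) and 1 of 5 endothelial markers (Lyve1) were lower with RG3487, and 0 of 3 stellate, 0 of 2 erythroid and 0 of 1 cholangiocyte markers passed. Summed Kupffer cell markers ranged from 1142 to 1455 with RG3487 and from 1352 to 1774 with vehicle. The endothelial sums ranged from 1949 to 2277 and from 2300 to 2569, the stellate sums from 451 to 506 and from 393 to 589, and the erythroid sums from 2616 to 3483 and from 2775 to 4105, in RG3487 and vehicle livers. The 2 cholangiocyte markers on the array summed to 141 to 276 and 114 to 181. None of the markers was at 0 on all arrays, and 0 of the 6 lymphocyte markers had a probe set of its own. Whether these shifts had a part in the results on ribosomal proteins was not tested. In whole tissue, fewer cells of a type and less RNA per cell cannot be told apart.

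About as many ribosomal protein probe sets passed the test as higher in livers of RG3487 rats as did not pass, and none passed as lower; the differences were small, and 3 probe sets lay below 0. Signals were compared as log2(signal + 16) with limma across 11894 probe sets, after leaving out the dimmest 25%, and a probe set was called at a Benjamini-Hochberg adjusted p under 0.05. Of the 43 ribosomal protein probe sets that passed this filter, 22 rose and 0 fell, or 51.2%, while 20.5% of all probe sets tested were called higher and 7.16% lower. The median log2 change of the 43 was 0.20, a 1.15-fold difference, and the middle of the 11894 was 0.08. Changes ran from -0.23 to 0.53, and 40 of 43 were above 0. In 14 of the 43, every RG3487 animal lay above every vehicle animal, while this held for 13.9% of all probe sets tested. Counted by gene, with the brightest probe set of each, 20 of 39 rose and 0 fell, beside 22.3% higher and 7.4% lower among 7727 genes. The plot of the change of each probe set shows how narrow this range was.

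**Figure D1:**
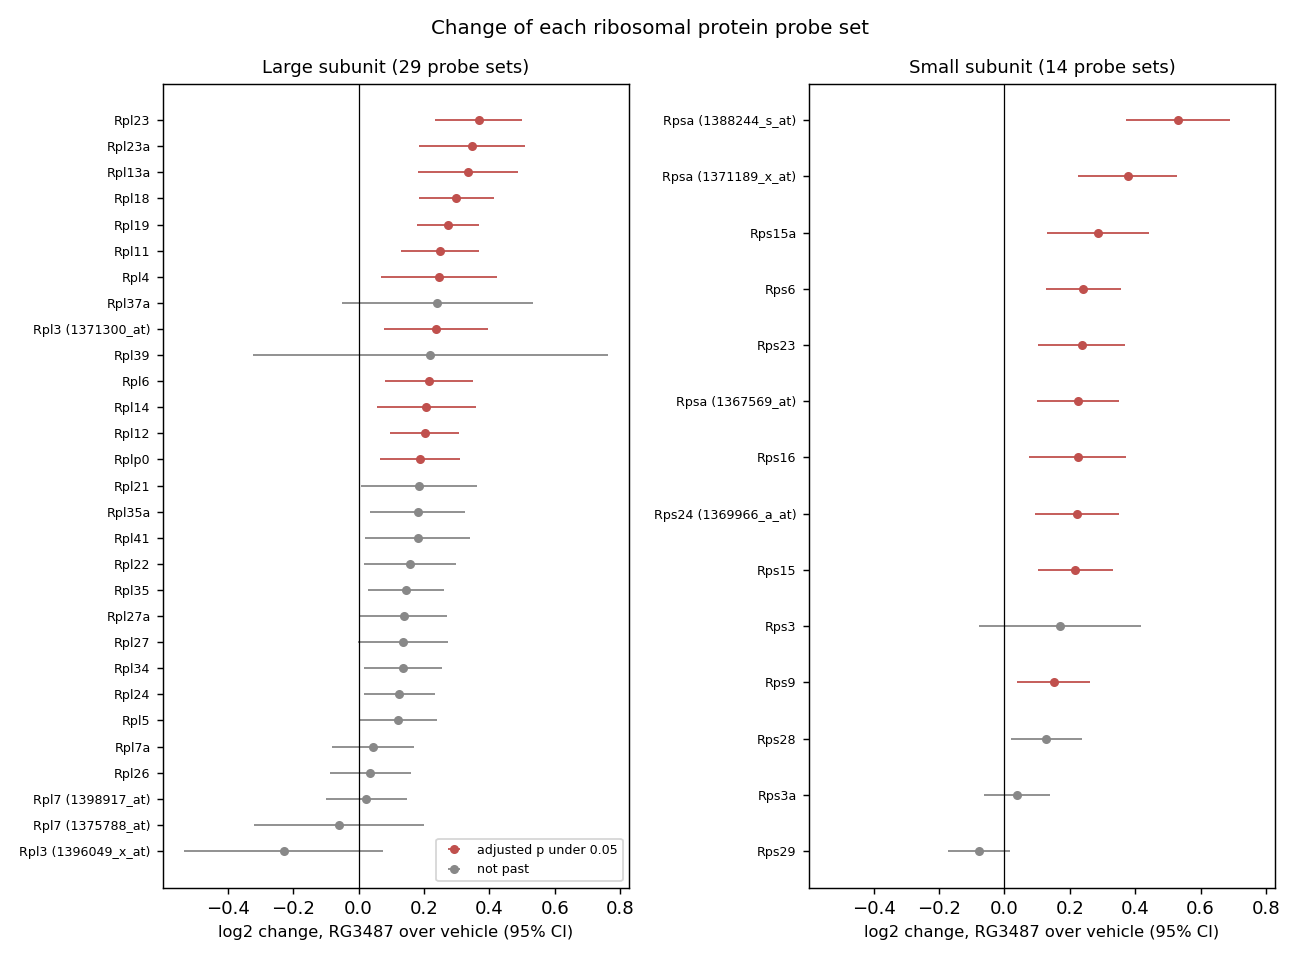
Log2 change of RG3487 over vehicle (x axis) for each of the 43 tested ribosomal protein probe sets (y axis), large subunit left and small subunit right, with 95% confidence intervals from limma. Red points passed an adjusted p under 0.05 and grey points did not; all 22 red points lie to the right of 0.

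How many rose depended on how the arrays were scaled. Quantile normalization gave 31 of 43, where 11.98% of all probe sets were called higher. Centring each array on its median gave 7 of 43 (16.3%), near the 11.4% of all probe sets. Scaling to the hybridization controls gave 40 of 43, where 56.2% of all probe sets were called higher. No ribosomal protein probe set was called lower with any of these 3 scalings. Scaling to the controls moved the median change of all probe sets by 0.20, to 0.28. Relative to the median of all probe sets, the members' median was 0.12 as deposited, 0.21 after quantile normalization, 0.12 after centring and 0.12 with the controls. Centring and scaling to the controls shift every probe set of an array by the same amount, so they could not alter this difference. The 7 that also rose after centring were Rpl13a, Rpl18, Rpl19, Rpl23, Rpl23a and 2 probe sets of Rpsa. Leaving out single animals gave between 15 and 28 of 43, with 15.2% to 21.5% of all probe sets called higher.

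The sequence at the transcription start is shown for 6 genes, because a tract of C and T there is what the family's mRNAs are known to share. RefSeq promoters (assembly GRCr8) were found for 33 of the 39 genes, and a start counted as a pyrimidine start when its first base was C and the next 4 were each C or T, read on the gene's strand. Capitals mark the tract that begins at the annotated start, which is preceded by 10 bases and followed to base 20.
Rpl19 (chr10:83519054-83519083, + strand): ccagcaagctCTTTCCTTTCgctgctgcgt
Rplp0 (chr12:46718371-46718400, - strand): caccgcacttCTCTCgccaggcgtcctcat
Rps15 (chr7:10068096-10068125, - strand): acaccgcttcCTTTTCCCagcagccgccaa
Rpl22 (chr5:168117951-168117980, + strand): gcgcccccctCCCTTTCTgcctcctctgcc
Rps3a (chr2:173827023-173827052, - strand): gtacttccgcCCTTTTggctctcagagcgg
Rpl23 (chr10:83272165-83272194, - strand): cttcctttctgactctttccggacgctcaa

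Of the 33 genes, 10 had a pyrimidine start (30.3%), against 2.63% of 33469 RefSeq promoter entries. A run of at least 8 bases of C and T within 25 bases of the start was found in 24 of 33 (72.7%) and in 19.4% of all entries. Of the 6 shown only Rpl23 had no pyrimidine start, and the bases just before its annotated start were all C or T. The 6 are examples and do not represent the 33, most of which had no pyrimidine start. Among the 6 shown, Rpl19, Rplp0, Rps15 and Rpl23 rose in RG3487 livers, whereas Rpl22 (0.16 ± 0.06, SE) and Rps3a (0.04 ± 0.05) did not pass. Of the 10 genes with a pyrimidine start 4 rose, with a median change of 0.18, and of the 23 without one 14 rose, with a median of 0.22. Among all genes 22.3% rose. This split rests on the exact annotated start, and 15 of the 23 held a run of at least 8 within 25 bases of it. The split therefore does not separate genes with such a tract from genes without. The match is a description of these windows.

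In the large subunit, 12 of 29 probe sets rose and 0 fell, beside 20.5% higher and 7.16% lower among all probe sets tested, with a median log2 change of 0.18. Without RG3487 animal 5 or without vehicle animal 1, 7 of the 29 rose, beside 15.2% and 18.2% of all probe sets. After centring 5 of the 29 rose, beside 11.4% of all probe sets. Rpl23, which lies at the face between the subunits and is also known to bind Mdm2, had signals of 2540, 2563, 2548, 2507 and 2913 in RG3487 livers, against 1947, 1856, 2084, 2232 and 1997 in vehicle livers. All RG3487 animals lay above all vehicle animals, and animal 5 of the RG3487 group stood above the other 4. Its log2 change was 0.37 ± 0.06 (SE, adjusted p = 0.00133). Rpl23a, a docking site at the exit of the peptide tunnel, rose by 0.35 ± 0.07 (adjusted p = 0.00531), with signals of 1988 to 2369 with RG3487, against 1421 to 1821 with vehicle. Rpl13a, which in human cells also leaves the ribosome to silence inflammatory mRNAs, rose by 0.34 ± 0.07 (adjusted p = 0.0047). Rpl18 rose by 0.30 ± 0.05 (adjusted p = 0.00175).

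Rpl19, which contributes to a bridge between the subunits, had signals of 3820, 3887, 3760, 3717 and 3834 with RG3487, against 2981, 3025, 3197, 3364 and 3160 with vehicle. The RG3487 animals were close together (coefficient of variation 1.74%, against 4.83% in vehicle) and lay clear of the vehicle animals, with a log2 change of 0.27 ± 0.04 (adjusted p = 0.00112). Rpl4, which lines the peptide tunnel, rose by 0.25 ± 0.08 (adjusted p = 0.0405), but vehicle animal 3 with 2848 lay above 4 of the 5 RG3487 animals, and this call was lost when any of 8 animals was left out. The groups did not overlap for 7 of the 29 probe sets, namely Rpl23, Rpl23a, Rpl13a, Rpl18, Rpl19, Rpl11 and Rpl12. Among all probe sets tested this held, as higher, for 13.9%.

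Rpl5 and Rpl11 enter the ribosome together with 5S RNA, and when free they bind and inhibit Mdm2. Rpl11 had signals of 3420, 3316, 3398, 3477 and 3671 in RG3487 livers, against 2817, 2724, 3003, 3247 and 2764 in vehicle livers. These groups did not overlap, and Rpl11 rose by 0.25 ± 0.06 (adjusted p = 0.00658). Rpl5 had signals of 3487, 3714, 3416, 3405 and 3428 with RG3487, against 3222, 3002, 3183, 3619 and 3048 with vehicle. Vehicle animal 4 lay above 4 of the RG3487 animals, and the change of 0.12 ± 0.06 did not pass (adjusted p = 0.122, 95% interval 0.00027 to 0.24). It passed without vehicle animal 4 (0.16, adjusted p = 0.0303). The difference between these genes was not tested. The control probe set for 5S RNA gave a signal of 30.4 ± 8.5 with RG3487 and 29.2 ± 3.3 with vehicle (exact permutation p = 0.825), a dim probe set.

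At the stalk that recruits elongation factors, Rplp0, often used as a reference gene, had signals of 3054, 3216, 3228, 3160 and 3559 with RG3487, against 2736, 2709, 2913, 3133 and 2735 with vehicle. One vehicle animal lay among the RG3487 animals. Rplp0 rose by 0.19 ± 0.06 (adjusted p = 0.0271), a call that was lost without RG3487 animal 5 or without vehicle animal 1, 2 or 5 (adjusted p = 0.0561 to 0.0633). Rpl12, at the base of the same stalk, rose by 0.20 ± 0.05 (adjusted p = 0.0101). Rpl3, next to the catalytic centre, rose by 0.24 ± 0.07 in its bright probe set (adjusted p = 0.0303), a call lost in 7 of 10 leave-one-out fits. Rpl6 and Rpl14 rose by 0.22 ± 0.06 and 0.21 ± 0.07 (adjusted p = 0.022 and 0.0445).

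Of the bright large subunit probe sets 14 did not pass, all of them above 0. Among these Rpl41, the smallest ribosomal protein, changed by 0.18 ± 0.07 (adjusted p = 0.0869). Rpl21, Rpl35a, Rpl22, Rpl35, Rpl27a, Rpl27, Rpl34, Rpl24 and Rpl5 lay between 0.12 and 0.18, Rpl7a was at 0.04 ± 0.06 and Rpl26 at 0.04 ± 0.06. Rpl26, a protein near the tunnel exit, had signals of 5250, 5010, 5554, 5122 and 5353 with RG3487, against 4731, 4659, 5335, 5543 and 5413 with vehicle. Its groups overlapped over most of their range, with a 95% interval of -0.09 to 0.16, and its sign turned when arrays were centred (-0.04), while it passed with quantile normalization (0.18) and with scaling to the controls (0.23). Rpl37a had signals of 2924, 2877, 2741, 3146 and 3081 with RG3487, against 2765, 2585, 3148, 2605 and 1644 with vehicle. Vehicle animal 5 lay far below the rest, and the change of 0.24 ± 0.13 did not pass (adjusted p = 0.2). Rpl39, on the X chromosome, had a dim probe set with 24 to 95 across all animals, and its interval of -0.32 to 0.76 held almost any of the values seen in the family.

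In the small subunit, 10 of 14 probe sets rose and 0 fell, beside 20.5% higher and 7.16% lower among all probe sets tested, with a median log2 change of 0.22. After centring 2 of the 14 rose, the probe sets of Rpsa ending in _s_at and _x_at, beside 11.4% of all probe sets called higher. The brightest probe set of Rpsa did not pass there. Rpsa, a ribosomal protein also known as the precursor of the laminin receptor, held 3 of the 14 probe sets and rose in each as deposited. Its brightest probe set had signals of 2389, 2434, 2459, 2561 and 2582 in RG3487 livers, against 1977, 1969, 2282, 2323 and 2080 in vehicle livers. The groups did not overlap there, and the log2 change was 0.23 ± 0.06 (adjusted p = 0.0129). Rps15a rose by 0.29 ± 0.07 (adjusted p = 0.0122), and none of its RG3487 animals (2392 to 2865) overlapped the vehicle animals (1867 to 2319).

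Rps6, the small subunit protein phosphorylated by S6 kinase downstream of mTOR, had signals of 3944, 3900, 3971, 3867 and 3907 in RG3487 livers, against 3197, 3024, 3534, 3617 and 3222 in vehicle livers. Its RG3487 values stood within a coefficient of variation of 1.03%, against 7.48% in vehicle, and above every vehicle animal, with a rise of 0.24 ± 0.05 (adjusted p = 0.00569). Rps23 and Rps15, which reach into the decoding centre, rose by 0.24 ± 0.06 and 0.22 ± 0.05 (adjusted p = 0.0135 and 0.0104). Rps16 and Rps24 rose by 0.22 ± 0.07 and 0.22 ± 0.06 (adjusted p = 0.0289 and 0.0157). Rps9, at the entry of the mRNA channel, rose by 0.15 ± 0.05 (adjusted p = 0.0479), a call lost in 9 of 10 leave-one-out fits.

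Rps3, also at the mRNA entry, had signals of 2535, 2111, 2060, 2372 and 2481 with RG3487, against 2204, 1659, 1935, 2708 and 1873 with vehicle. Vehicle animal 4 was the highest of all 10, and the change of 0.17 ± 0.11 did not pass (adjusted p = 0.287), but it did without that animal (0.27, adjusted p = 0.0494). Rps28 changed by 0.13 ± 0.05 (adjusted p = 0.0723) and Rps3a by 0.04 ± 0.05 (adjusted p = 0.566), and neither passed. The sign of Rps3a turned when arrays were centred (-0.04), and it passed with quantile normalization (0.16). Rps29, a small zinc-binding protein, had signals of 6194, 6336, 6495, 6137 and 6011 with RG3487, against 6432, 6174, 6542, 6773 and 6987 with vehicle. It was the only small subunit probe set below 0 (-0.08 ± 0.04, adjusted p = 0.202), and its sign turned with quantile normalization (0.10) and with scaling to the controls (0.12). With scaling to the controls Rps29 passed as higher, as did all 14 small subunit probe sets, beside 56.2% of all probe sets.

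**Figure D2:**
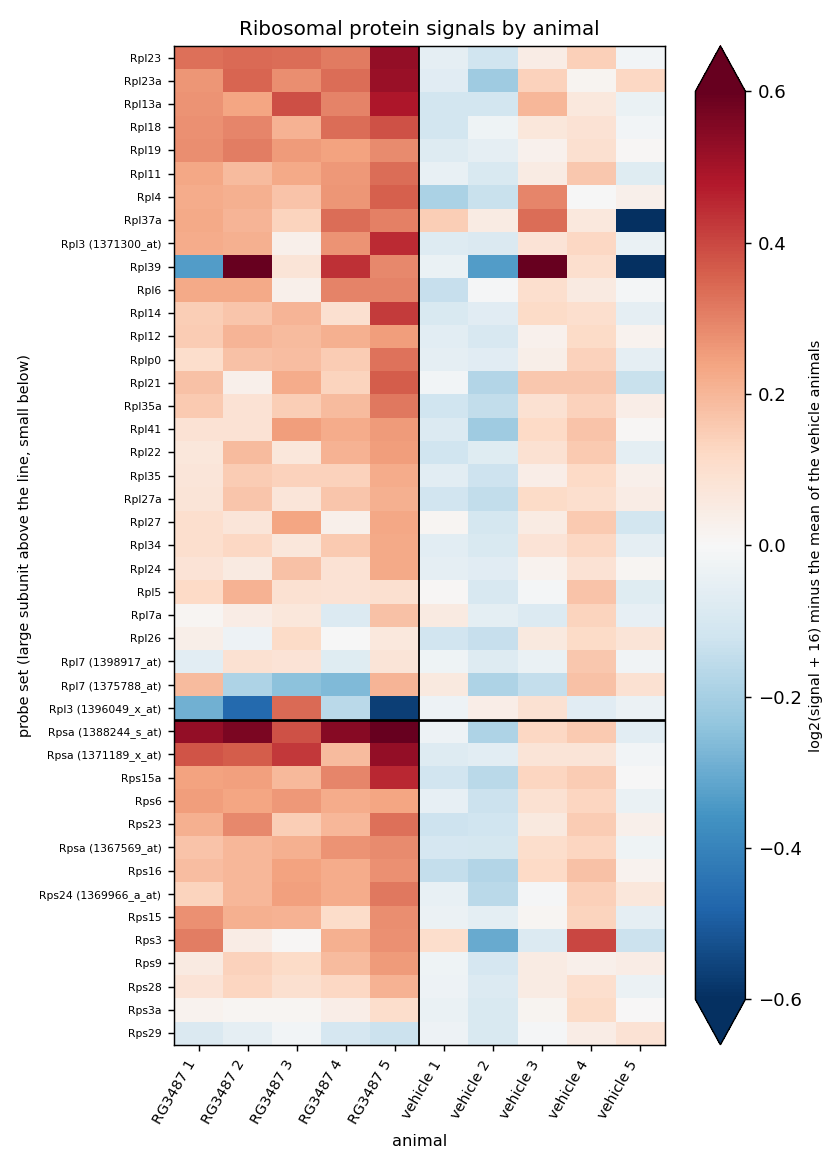
Log2(signal + 16) of each of the 43 tested probe sets (rows) in each animal (columns, RG3487 left, vehicle right), minus the mean of the vehicle animals; red is above and blue below it. RG3487 animal 5 is the highest of its group in 31 rows and vehicle animal 4 the highest of its group in 31 rows.

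Set side by side, the small subunit had the larger share of probe sets called (71.4%, against 41.4% in the large subunit). Among all probe sets tested 20.5% were called higher. The median changes of the subunits lay close to each other. They were 0.18 for large and 0.22 for small subunit probe sets. Averaged over the probe sets in each animal, the large subunit was 10.9954, 11.0245, 11.0296, 11.0345 and 11.1343 in RG3487 livers, against 10.82, 10.77, 10.98, 10.98 and 10.82 in vehicle livers. For the small subunit the values were 11.38, 11.38, 11.36, 11.38 and 11.47 with RG3487, against 11.13, 11.05, 11.24, 11.32 and 11.18 with vehicle. In both subunits the RG3487 animals all lay above the vehicle animals. Large minus small was -0.35 ± 0.02 in RG3487 livers and -0.31 ± 0.04 in vehicle livers (SD, n = 5 each), a difference of -0.04, and the animals of both groups overlapped. With the brightest probe set of each gene alone, large minus small was -0.28 ± 0.03 and -0.30 ± 0.05, a difference of 0.02 in the opposite direction. By gene, 12 of 27 large and 8 of 12 small subunit genes rose, beside 22.3% of all genes. The median changes by gene were 0.19 for large and 0.22 for small, in the same direction as by probe set. No order between the subunits is therefore given.

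**Figure D3:**
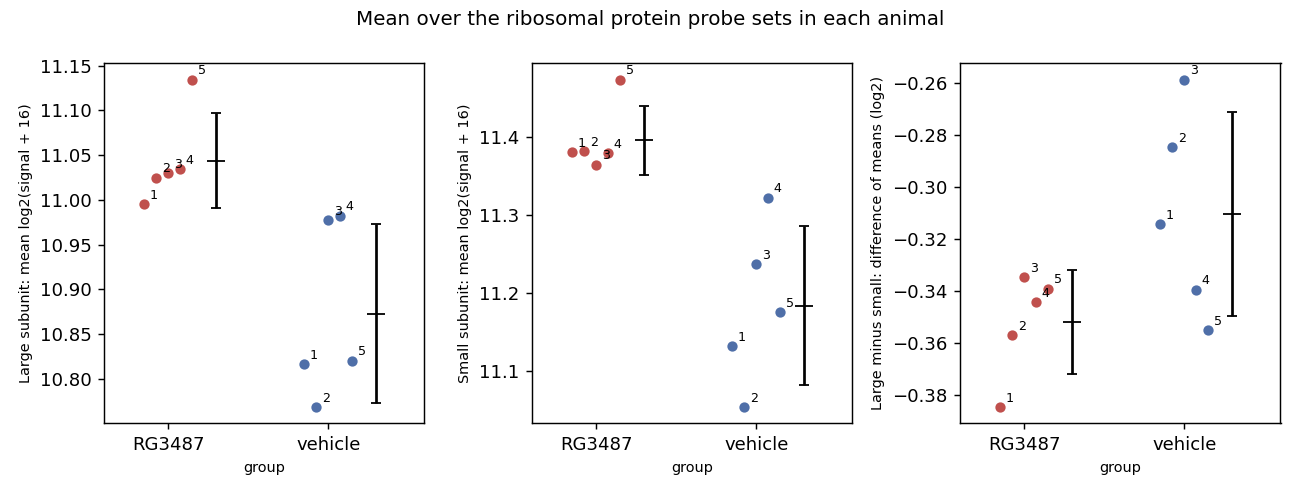
Mean log2(signal + 16) over the large (left) and small (middle) subunit probe sets and their difference (right) in each animal; points are animals with their numbers, and bars give the group mean and SD (n = 5). RG3487 animals lie between 10.9954 and 11.1343 on the left and vehicle animals between 10.77 and 10.98, while the differences overlap.

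Ribosomal protein signals varied together from animal to animal. Among the 43 probe sets, vehicle animal 2 was the lowest of its group in 29, vehicle animal 4 the highest in 31, and RG3487 animal 5 the highest of its group in 31. All 44 probe sets together made up 2.32%, 2.34%, 2.34%, 2.34% and 2.50% of the array signal in RG3487 livers, against 2.02%, 1.95%, 2.20%, 2.29% and 2.08% in vehicle livers. The shares did not overlap, although vehicle animal 4 came close to the lowest RG3487 animal. Spread within a group was smaller with RG3487: over the 39 members in the brightest 10% of all probe sets the median coefficient of variation was 5.11%, against 7.48% in vehicle, and it was lower with RG3487 in 34 of 39 (87.2%). Among the other 1151 probe sets of that 10% the medians were 6.62% and 6.78%, and it was lower with RG3487 in 50.4%. These members share the same animals and are not independent of each other.

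The family's transcripts were among the brightest on the array, so their changes were also set beside probe sets of like signal. Of the brightest 10%, 24.7% rose and 23.0% fell, with a median change of 0.02, while 21 of the 39 members in it rose (53.8%) and 0 fell. Between 11 and 12 on the log2 scale, 17 of 29 members rose and 0 fell, with a median of 0.22, against 68 higher and 88 lower of 310 other probe sets, with a median of -0.03. At 12 and over, 1 of 5 members rose, Rps23, with a median of 0.04, against 8 higher and 83 lower of 173 other probe sets, with a median of -0.15. The 4 other members at this level were Rps29, Rpl26, Rpl7a and Rps3a. Across the 39 members of the brightest 10%, the change was smaller in brighter probe sets (Pearson's r = -0.64, Spearman's rho = -0.41, a description over probe sets that share the same arrays). Over all 43 tested members, 4 of them dimmer, Pearson's r was 0.14 and Spearman's rho -0.26. Signal differs between probe sets for reasons other than abundance, so this does not order the transcripts.

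**Figure D4:**
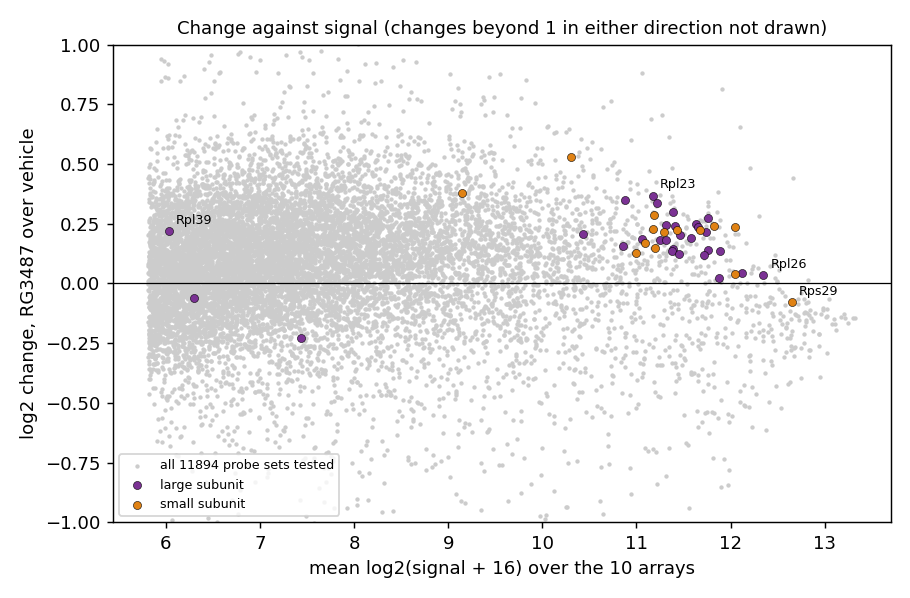
Log2 change of RG3487 over vehicle (y axis) against mean log2(signal + 16) over the 10 arrays (x axis), for all 11894 tested probe sets (grey) and the large (purple) and small (orange) subunit members. The members sit mostly between 11 and 12 and above 0, and those at 12 and over lie near 0 except Rps23.

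Of the 4 genes with several probe sets, Rpsa was called higher in each of its 3, Rpl3 in 1 and Rpl7 in none, and Rps24 had 1 tested. Differences between probe sets of a gene were not tested. For Rpsa the probe set ending in _s_at had signals of 1501, 1541, 1359, 1521 and 1625 with RG3487, against 1015, 910, 1132, 1160 and 992 with vehicle. It rose by 0.53 ± 0.07 (adjusted p = 0.000468), the largest rise of all members, and the one ending in _x_at rose by 0.38 ± 0.07 (adjusted p = 0.00225), against 0.23 in the brightest. Such endings mark probe sets that may match more than 1 transcript, and ribosomal protein genes have many processed copies in the genome, so these values may mix transcripts. For Rpl3 the dim second probe set, also ending in _x_at, had 137, 119, 220, 151 and 110 with RG3487, against 167, 176, 183, 162 and 166 with vehicle. RG3487 animal 3 was the highest of all 10 and the other 4 were the lowest, and the change of -0.23 ± 0.14 did not pass (adjusted p = 0.242), whereas without that animal it did, as lower (-0.37, adjusted p = 0.0105). Both probe sets of Rpl7 were near 0, the bright one at 0.02 ± 0.06 (-0.05 with centred arrays, 0.22 and passing at an adjusted p of 0.0064 with scaling to the controls) and the dim one at -0.06 ± 0.12 (0.14 with scaling to the controls). The second probe set of Rps24, with 29 to 39 with RG3487 and 21 to 42 with vehicle, was the 1 member left out by the filter. A further 33 probe sets were annotated to a ribosomal protein gene together with its copies or another gene. Of these 18 rose and 0 fell (54.5% higher, beside 20.5% of all probe sets tested), with a median of 0.20.

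**Figure D5:**
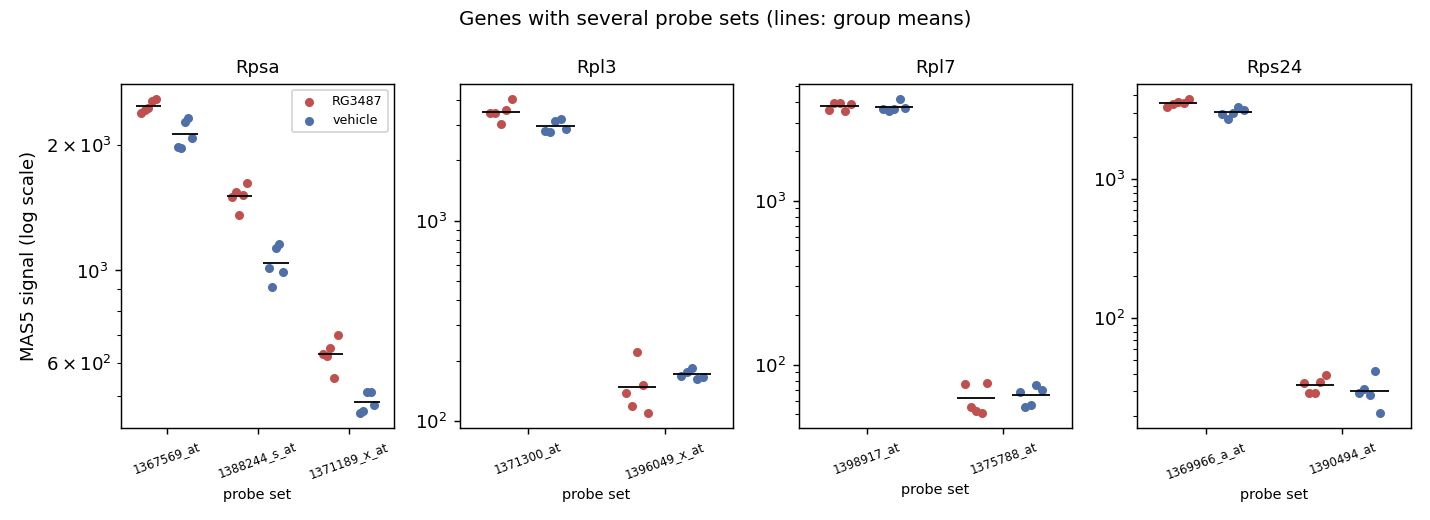
MAS5 signal (y axis, log scale) of each probe set (x axis) of the 4 genes with several probe sets, with 1 point per animal, RG3487 in red and vehicle in blue, and lines at the group means. All 3 probe sets of Rpsa are higher with RG3487, while the dim probe sets of Rpl3, Rpl7 and Rps24 overlap.

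Other parts of the translation machinery, and the proteasome beside them, were read by gene, from lists chosen with earlier results of these data known. Among all 7727 genes 22.3% rose and 7.4% fell, with a median of 0.09. Of all probe sets 11.4% were called higher after centring and 56.2% with scaling to the controls. Of 77 genes of ribosome biogenesis 39 rose and 0 fell (50.6% higher), with a median of 0.28. The count was 28 higher after centring and 69 with scaling to the controls, with 0 lower in both. Nhp2, a protein of the RNA particles that modify ribosomal RNA, rose by 0.72 ± 0.12 (adjusted p = 0.00113), and the nucleolar genes Gnl2, Ddx56 and Utp4 rose by 0.62 ± 0.10, 0.57 ± 0.10 and 0.53 ± 0.09. Of 73 mitochondrial ribosomal proteins, which form the separate ribosome of the mitochondrion, 51 rose and 0 fell (69.9% higher, with 28 and 0 after centring and 72 and 0 with scaling to the controls), with a median of 0.27. Mrpl49, Mrps7, Mrps34 and Mrpl23 rose by 0.51 ± 0.07, 0.45 ± 0.06, 0.48 ± 0.07 and 0.39 ± 0.06. Of 36 proteasome subunits, which degrade proteins, 27 rose and 0 fell (75% higher), with a median of 0.27, among them Psmc2 (0.34 ± 0.05). The counts were 17 and 0 after centring and 34 and 0 with scaling to the controls. The cytosolic family had 20 of 39 and a median of 0.20 on the same count, as deposited. After quantile normalization 28 of 76 biogenesis genes, 27 of 73 mitochondrial ribosomal proteins and 23 of 36 proteasome subunits rose. Their medians were then 0.22, 0.18 and 0.22. The cytosolic family, by probe set, then had 31 of 43 and a median of 0.23, beside 11.98% of all probe sets called higher. The difference between the lists was not tested.

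Among 46 genes whose names start with Eif, initiation factors together with some of their regulators, 27 rose (58.7%, beside 22.3% of all genes) and 1, Eif4ebp2, fell. After centring 20 rose and 1 fell, beside 11.4% of all probe sets called higher. With scaling to the controls 36 rose and 0 fell, beside 56.2% of all probe sets called higher. Eif3c rose by 0.75 ± 0.08 (adjusted p = 0.000108), and Eif2d, Eif5a and Eif3d rose by 0.44 ± 0.06, 0.40 ± 0.06 and 0.45 ± 0.07. Elongation factors and other genes known for a pyrimidine start rose in 5 of 12 (41.7%) and fell in 0, but 2 rose and 1 fell when arrays were centred. Hnrnpa1, an RNA-binding protein, rose by 0.92 ± 0.10, and Eef1b2, Eef1g and Eef1d, of the complex that reloads the elongation factor with GTP, rose by 0.39 ± 0.07, 0.26 ± 0.07 and 0.29 ± 0.08. The factor itself, Eef1a1, had 6071 ± 275 with RG3487 and 6567 ± 200 with vehicle (-0.11 ± 0.04, adjusted p = 0.0655), with a sign that turned under quantile normalization (0.05). Of ribosome proteins and relatives named otherwise, 3 of 3 rose (2 after centring). Rps27l, a relative of Rps27 known as a p53 target, rose by 1.12 ± 0.14 (adjusted p = 0.000224). Rack1, a scaffold on the small subunit, rose by 0.17 ± 0.06 (adjusted p = 0.0374, and 0.291 after centring), and Rpl7l1 rose by 0.36 ± 0.09 (adjusted p = 0.0101).

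Among 18 regulators of ribosomal protein synthesis, 2 rose (11.1%) and 3 fell (16.7%), beside 22.3% and 7.4% of all genes, with a median of 0.01. Mdm2, the p53 inhibitor that free Rpl5, Rpl11 and Rpl23 bind, had a signal of 227 ± 39 with RG3487 and 107 ± 11 with vehicle and rose by 0.97 ± 0.11 (adjusted p = 0.000196). Rheb, the activator of mTOR, rose by 0.20 ± 0.06 (adjusted p = 0.0218), though not after centring (adjusted p = 0.15). Deptor and Sesn2, both inhibitors of mTOR signalling, fell by 0.33 and 0.59 on the log2 scale (adjusted p = 0.0023 and 0.0273), and neither passed with scaling to the controls (adjusted p = 0.0873 and 0.0593). Eif4ebp2, also in this list, fell by 0.17 on the log2 scale (adjusted p = 0.0461), but not with scaling to the controls (0.02, adjusted p = 0.784). Other inhibitors of this signalling, Ddit4, Tsc2, Tsc1 and Akt1s1, did not pass. Ddit4 lay higher with RG3487 (0.43 ± 0.16, adjusted p = 0.0637), and Tsc2, Tsc1 and Akt1s1 changed by 0.12 ± 0.08, -0.03 ± 0.08 and -0.04 ± 0.10. Mtor, Larp1 and Rps6kb1 changed by 0.11 ± 0.09, 0.19 ± 0.13 and -0.07 ± 0.07 and did not pass. With scaling to the controls this list had 9 of 18 higher and 0 lower, where 56.2% of all probe sets were called higher.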

How the data were processed

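Liver RNA (1 ug per sample) was labelled and hybridized to Affymetrix rat arrays, 1 per animal, and the authors deposited MAS5 signal intensities on a linear scale, in whole numbers, per the submitters' processing notes and the values; which MAS5 version and which scaling target is not given in the sources used here. MAS5 signals of bright probe sets can be compressed, and the common scaling makes every value relative to the rest of the array. With arrays there are no read totals, and precision is limited by the number of animals, which the labels name as 10 different ones. Sex, scan date and batch were not used here.

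Of 15899 probe sets, 40 controls and the 25% with the lowest mean over all arrays were left out, and 11894 were compared as log2(signal + 16) in R 4.3.3 with limma 3.58.1 (lmFit, eBayes with trend, Benjamini-Hochberg over all). The pseudocount makes folds of dim probe sets smaller. Array measures were compared with exact two-sided permutation tests (252 regroupings, smallest possible p 0.00794). Symbols came from the platform annotation and were checked by Entrez identifier against RefSeq (37 of 39 member genes matched). The fit was tested on simulated data. Members and lists were chosen with earlier results of these data known. Members named are the 6 largest and 4 smallest changes per subunit, genes whose probe sets differ in call and a set chosen for function. A few others are named to account for all members. From each list up to 4 genes with the smallest p are named. Others were chosen after their values were seen (Eef1a1, Eif4ebp2, Mtor, Larp1, Rps6kb1, Ddit4, Tsc1, Tsc2, Akt1s1, Alb). The alternatives were other pseudocounts, scalings, filters, variance models, probe set choices, array weights, a replicate block and each array left out.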

Additional observations from a re-analysis of the deposited data

Results flagged for a closer look

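Within each group of 5, the highest and lowest value was checked for a gap to its neighbour, relative to the group's range, above Dixon's critical value. Of 110 such groups 9 exceeded it, where chance gives about 1 in 20. RG3487 animal 5 stood above its group for Rpl23 (2913, next 2563), for the large subunit mean (11.13 on the log2 scale, next 11.03), for the small subunit mean (11.47, next 11.38) and for the members' share of array signal (2.50%, next 2.34%). RG3487 animal 3 lay below its group for Rpl6 (3230, next 3707) and for the array median (92, next 95), and RG3487 animal 2 above it for Rpl5 (3714, next 3487). Vehicle animal 4 stood above its group for the bright Rpl7 probe set (4164, next 3665), and vehicle animal 2 below it for the actin 3′ to 5′ ratio (2.97, next 3.43).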

How the results depend on the processing

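Of the counts and medians, pseudocounts of 1 and 64, no filter or the 50% filter, robust estimation, array weights, eBayes without trend, the replicate block and the other probe set choices kept direction and stayed within 1.5 times of the reported counts. Without the trend 16 of 43 ribosomal protein probe sets rose (8 large, 8 small), beside 20.2% of all probe sets. Scaling of the arrays did not stay within these limits. Quantile normalization gave 19 large subunit probe sets higher and 1425 of all probe sets higher. Centring on the median gave 7 ribosomal protein probe sets higher (5 large, 2 small), 1359 of all higher and 1335 lower. Scaling to the hybridization controls, which assumes equal amounts added, gave 40 higher (26 large), medians of 0.38 (large) and 0.42 (small), and 6683 of all higher and 354 lower. Of all calls 74.1% were higher as deposited, 54.4% after quantile normalization, 50.4% after centring and 94.97% with the controls. Leaving out each animal gave 15 to 28 ribosomal protein probe sets higher and 0 to 1 lower, 7 to 17 large and 8 to 11 small subunit ones, medians of 0.14 to 0.22 (large) and 0.19 to 0.26 (small), and a large minus small difference of -0.0711 to -0.0250. The lowest large subunit count, 7, came without RG3487 animal 5 or vehicle animal 1. Signs turned for Rpl26 (-0.0416), bright Rpl7 (-0.0549) and Rps3a (-0.0400) after centring, for Rps29 after quantile normalization (0.10) and with the controls (0.12), and for dim Rpl7 with the controls (0.14). The cause was not tested. The replicate numbers name 10 different animals and same-numbered animals correlated between -0.04 and 0.17, so they were not taken as pairs; with the replicate block 18 of 43 rose (9 large, 9 small). Among all named members and alternatives, 568 values kept direction and call, 48 lost the call, 16 gained it and 6 turned. Dim probe sets (Rpl39, second sets of Rpl3, Rpl7 and Rps24) bound changes only loosely.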
